A study of Mus musculus with 4 samples.

Results

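The 9 genes described here encode proteins that make, carry, sense and destroy retinoic acid, the hormone-like derivative of vitamin A. They were chosen by name from the array's gene annotation: Aldh1a1, Aldh1a2, Aldh1a3, Crabp1, Crabp2, Rbp4, Rarb, Rarg and Cyp26b1. Together they have 11 probes among 55681 on the array, 3 for Rarb and 1 for each of the other genes. Of the 9 genes, 8 passed the filter on dim probes and were tested among 18736 named genes. Rarg did not pass.

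On 4 two-colour arrays, RNA of sorted dental pulp cells labelled odontoblast (dentin-forming cells) was set against RNA of sorted calvarial bone cells labelled osteoblast (bone-forming cells). Both came from donor-matched mice, 2 weeks old, with EGFP driven by 2.3 kb of a type I collagen promoter, and green cells were sorted after enzyme digestion. The strain C57BL/6 is given for the pulp cells. Each array held 1 RNA of each kind, the odontoblast-labelled RNA in Cy5 and the osteoblast-labelled RNA in Cy3, with no dye swap, so dye and label cannot be told apart. The promoter is active in both cell types, so the sort was aimed at collagen-producing cells of each tissue and not at 1 lineage. The purity of the sorted cells was not tested. The number of animals per array is not given in the labels, and p-values measure only the spread between these 4 arrays.

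All ratios are log2 of Cy5 over Cy3. A positive ratio means more signal in the odontoblast-labelled channel (Cy5). Marker genes ran against these labels: the dentin gene Dspp had a mean ratio of -1.95 (adjusted p = 0.0603) and the odontoblast filament gene Nes ratios of -3.07 to -1.05 on the 4 arrays (adjusted p = 0.0691), while Ifitm5, a gene of mineralising osteoblasts, had 5.05 (adjusted p = 0.0167) and the collagen gene Col1a2 had 2.79 (adjusted p = 0.0230, limma). Of 11 odontoblast and dentin markers 3 were called toward Cy3 and 0 toward Cy5 (median ratio -1.71), and of 12 osteoblast and bone matrix markers 4 toward Cy5 and 0 toward Cy3 (median 2.23). Over all genes 1.31% were called toward Cy5 and 0.886% toward Cy3. Not every marker went with its list: 3 of the 11 had a positive mean and 1 of the 12 a negative one. Channels are therefore named by dye and label, not as cell types. If the labels were exchanged, the ratios of Cy5 over Cy3 would stand, but the tissue read from each sign would be reversed. The median spot lay 7.10 to 8.21 times above local background in Cy5 and 10.9 to 15.96 times in Cy3, and array ratios correlated with each other across genes at r = 0.32 to 0.54. In bulk RNA of this kind, fewer cells of a type and less RNA per cell cannot be told apart.

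Retinol reaches cells bound to the plasma carrier RBP4. Inside the cell it is oxidised to retinaldehyde and then, by the ALDH1A enzymes, irreversibly to retinoic acid, which CRABP1 and CRABP2 bind in the cytoplasm. Retinoic acid binds the nuclear receptors RARA, RARB and RARG, which sit on DNA as partners of RXR receptors, and enzymes of the CYP26 family oxidise it for clearance. In the developing face and teeth, graded retinoic acid takes part in patterning, and in bone it influences both matrix-forming cells and bone resorption. Rarb is a textbook example of a retinoic acid target: a pair of receptor recognition sites with 5 bases between them lies in the promoter of its beta 2 isoform.

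The promoter windows of the 3 genes that passed the test are shown, with different letters chosen for capitals in each. They come from RefSeq, build GRCm38.p6, run 5′ to 3′ on the gene's strand, and cover 250 bases before and 50 after the annotated start site. RefSeq windows were matched by symbol for 7 of the 9 genes, with 10 windows in all. No window was matched for Aldh1a3 or Crabp2, and of the matched windows only those printed below are shown. In Rarb (chr14:16575427-16575726, minus strand) capitals mark 2 such sites in direct repeat with 5 bases between them.
Rarb promoter: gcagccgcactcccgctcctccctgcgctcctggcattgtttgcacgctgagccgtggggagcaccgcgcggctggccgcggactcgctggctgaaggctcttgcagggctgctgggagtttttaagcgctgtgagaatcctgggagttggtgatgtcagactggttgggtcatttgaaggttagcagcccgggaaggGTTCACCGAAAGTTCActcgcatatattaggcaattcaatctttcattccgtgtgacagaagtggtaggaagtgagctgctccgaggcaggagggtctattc
In Crabp1 (chr9:54764498-54764797, plus strand) capitals mark GGGCGG or its reverse complement, the letters of a GC box.
Crabp1 promoter: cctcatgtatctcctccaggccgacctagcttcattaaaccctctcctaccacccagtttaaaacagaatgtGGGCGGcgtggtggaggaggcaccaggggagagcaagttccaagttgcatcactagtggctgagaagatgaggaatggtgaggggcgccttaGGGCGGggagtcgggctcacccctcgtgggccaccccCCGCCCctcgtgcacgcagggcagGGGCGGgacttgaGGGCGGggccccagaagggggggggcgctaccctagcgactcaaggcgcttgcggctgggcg
Of the 2 windows of Rbp4, the one shown (chr19:38124762-38125061, minus strand) was chosen because it has TATAAA, in capitals, the letters of a TATA box. The other window has no TATAAA.
Rbp4 promoter: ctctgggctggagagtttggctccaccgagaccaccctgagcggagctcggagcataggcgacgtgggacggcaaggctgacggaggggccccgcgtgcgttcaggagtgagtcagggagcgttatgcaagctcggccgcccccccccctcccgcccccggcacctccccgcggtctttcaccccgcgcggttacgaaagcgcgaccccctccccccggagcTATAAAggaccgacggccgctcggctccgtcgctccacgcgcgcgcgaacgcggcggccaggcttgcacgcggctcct

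Receptor recognition sites were searched on both strands as GGTCA or GTTCA, the first letter of each 6-letter site left free. With 5 bases between the sites, the repeat is written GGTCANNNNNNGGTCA, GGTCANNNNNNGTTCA, GTTCANNNNNNGGTCA or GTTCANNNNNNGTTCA. It occurred in 81 of 32851 RefSeq promoter windows (0.247%), and the 1 match among the member windows was the one in Rarb, which ends 36 bases before the start site. The same sites with 2 bases between them occurred in 0.399% of all windows and were not found in the member windows. Aldh1a3 and Crabp2 had no window and were not searched, and sequence outside the windows was not searched for any member. The letters TATAAA occurred in 13.6% of all windows, in the Rbp4 window 22 bases before the start site, and in the Cyp26b1 window. The letters GGGCGG occurred in 35.7% of all windows, with 5 matches in the Crabp1 window, 3 in Cyp26b1, 3 in 1 window of Rarg and 2, not capitalised above, in the Rbp4 window shown. Member windows ranged from 40.7% to 78.0% G plus C, against a median of 52.7% over all windows.

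Of the 8 tested genes, limma called 3 at an adjusted p under 0.05, Rbp4 toward the odontoblast-labelled channel and Crabp1 and Rarb toward the osteoblast-labelled channel. Across the array 412 of 18736 genes (2.20%) were called, 1.31% toward Cy5 and 0.886% toward Cy3. Ratios had 1 sign on all 4 arrays for 5 of the 8 genes, against 31.5% of all genes. The median size of the ratio was 1.20 over the 8 genes and 0.35 over all genes, while the median signed ratio was -0.28 over the 8 genes and 0.01 over all genes. The genes thus lay on both sides, 3 with a positive mean and 5 with a negative one, and they did not share a direction. Rbp4 passed the filter only through the channel where it is high, so these counts and medians are descriptions.

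**Figure D1:**
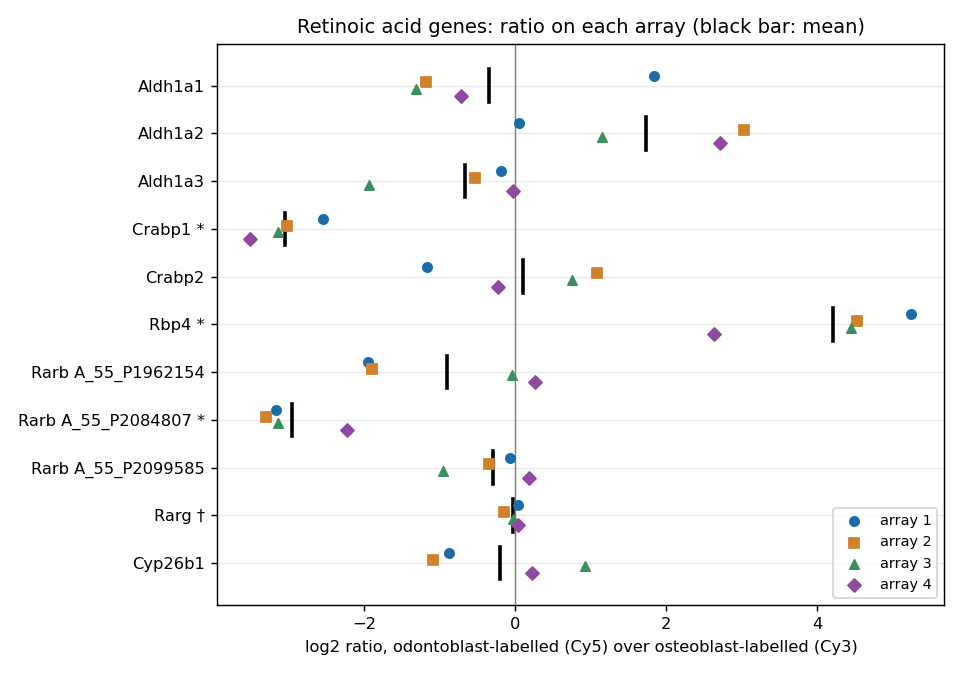
The log2 ratio of the odontoblast-labelled (Cy5) over the osteoblast-labelled (Cy3) channel (x axis) is plotted for each of the 11 probes (rows), with 1 symbol per array and a black bar at the mean of 4 arrays. An asterisk marks a probe that stands for a gene called by limma and a dagger the probe that failed the filter. Crabp1 lies between -3.51 and -2.55 and Rbp4 between 2.63 and 5.25, whereas Aldh1a1, Crabp2 and Cyp26b1 have arrays on both sides of 0.

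Rbp4, which encodes the plasma carrier that delivers retinol from the liver to tissues, had the largest ratio of the 9 genes. Its probe (chromosome 19, 38191120 to 38191179, mm9) had normalized intensities of 3850.4, 2552, 3513 and 1782 in the odontoblast-labelled channel on arrays 1 to 4, against 101, 111, 161 and 287 in the osteoblast-labelled channel. The channels did not overlap, and the smallest gap was on array 4. Ratios were 5.25, 4.53, 4.45 and 2.63, with a mean of 4.21 ± 0.44 (SE, n = 4; limma adjusted p = 0.0231). In the osteoblast-labelled channel the probe was well above background on only 2 arrays, 3 and 4, where the ratios were 4.45 and 2.63. It passed the filter on dim probes through Cy5 alone, so the mean is given without a fold, and the call rests in part on Cy3 spots near background. From the scanner software's own ratios the mean ratio was 5.91 (limma adjusted p = 0.0532). The call was lost without array 1 (adjusted p = 0.0997), without array 2 (0.114) and without array 3 (0.0664), where mean ratios were between 3.87 and 4.14. Without array 1 or array 2 limma called 0 genes across the array, so those losses are not particular to Rbp4. Without array 3 it called 173, against 412 with all 4 arrays.

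The 3 retinaldehyde dehydrogenases carry out the last step of retinoic acid synthesis, and none was called. Aldh1a2, the main enzyme of the early embryo (probe on chromosome 9, 71143931 to 71143990, mm9), had intensities of 144, 1380.0, 433 and 1739 in the odontoblast-labelled channel, against 139.7, 168, 195 and 265 in the osteoblast-labelled channel. Signal was higher in Cy5 on all 4 arrays, but on array 1 the channels were nearly level. Ratios of 0.04, 3.03, 1.15 and 2.71 gave a mean of 1.73 ± 0.54 (SE, n = 4), 3.33-fold, at an unadjusted p of 0.0213 and an adjusted p of 0.189 in limma.

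Aldh1a1, which also oxidises other aldehydes (chromosome 19, 20717764 to 20717823, mm9), showed the opposite array pattern. Its intensities were 719.8, 488, 483 and 888 in the odontoblast-labelled channel, against 202, 1110.2, 1198 and 1457 in the osteoblast-labelled channel. Array 1 was higher in Cy5 and arrays 2 to 4 were higher in Cy3. The ratios 1.83, -1.19, -1.31 and -0.71 averaged -0.34 ± 0.57 (SE, n = 4, limma adjusted p = 0.775). Without array 1 the mean was -1.07, with an adjusted p of 0.208.

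Aldh1a3, the third enzyme of the family, prominent in nasal and eye tissue of the embryo (chromosome 7, 73535785 to 73535844, mm9), was well above background in both channels on each array. Intensities were 135, 144, 124 and 132 in the odontoblast-labelled channel, against 153, 209, 478 and 135 in the osteoblast-labelled channel. Cy3 was higher on every array, by a small margin except on array 3. The mean ratio was -0.67 ± 0.36 (SE, n = 4, limma adjusted p = 0.373). It was -0.25 without array 3 and -1.02 from the software's ratios. Within arrays, the ratio of Aldh1a2 exceeded that of Aldh1a3 on 4 of 4 arrays, by 2.41 on average (SD 1.49). It exceeded that of Aldh1a1 on 3 of 4 arrays. The mean of Aldh1a1 minus Aldh1a2 over all 4 arrays was -2.08, with 1.79 on array 1. An exact sign permutation test, two-sided, gave p = 0.125 and 0.25. The smallest p that 4 arrays allow is 0.125, and adjusted over the 7 differences computed between members or probes the values were 0.219 and 0.35.

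Of the 2 cellular binding proteins, 1 was called. Crabp1, which holds retinoic acid in the cytoplasm and is known from neural crest derivatives (chromosome 9, 54616192 to 54616251, mm9), had intensities of 2563, 4654, 3792 and 6178 in the odontoblast-labelled channel, against 15057, 37745, 33456 and 70345 in the osteoblast-labelled channel. The channels did not overlap across arrays. Ratios of -2.55, -3.02, -3.14 and -3.51 had the smallest spread of the 8 tested genes, with a mean of -3.06 ± 0.21 (SE, n = 4). Signal was 8.32-fold higher in Cy3 (limma adjusted p = 0.00978), rank 60 among all genes toward that channel. Both channels cleared background on each array. The call was lost without array 1 (adjusted p = 0.0522), without array 2 (0.0656) and without array 4 (0.0726), and held without array 3 (0.0377). Across the array, limma called 0 genes without array 1 or array 2 and 29 without array 4, against 412 with all 4 arrays. The losses without array 1 and array 2 are therefore not particular to Crabp1.

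Crabp2, which passes retinoic acid on to the receptors in the nucleus (chromosome 3, 87757207 to 87757266, mm9), was bright in both channels and showed no steady direction. Its intensities were 1273, 2140.0, 1524 and 2019.6 in the odontoblast-labelled channel, against 2856, 1013, 909 and 2378 in the osteoblast-labelled channel. Cy5 was higher on arrays 2 and 3 and Cy3 on arrays 1 and 4. The mean ratio was 0.11 ± 0.41 (SE, n = 4, limma adjusted p = 0.909), and it turned to -0.22 without array 2 and to -0.11 without array 3. The ratio of Crabp1 was lower than that of Crabp2 on 4 of 4 arrays, by -3.16 on average (SD 1.23). The exact sign permutation test gave p = 0.125, the smallest possible, and 0.219 after adjustment.

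**Figure D2:**
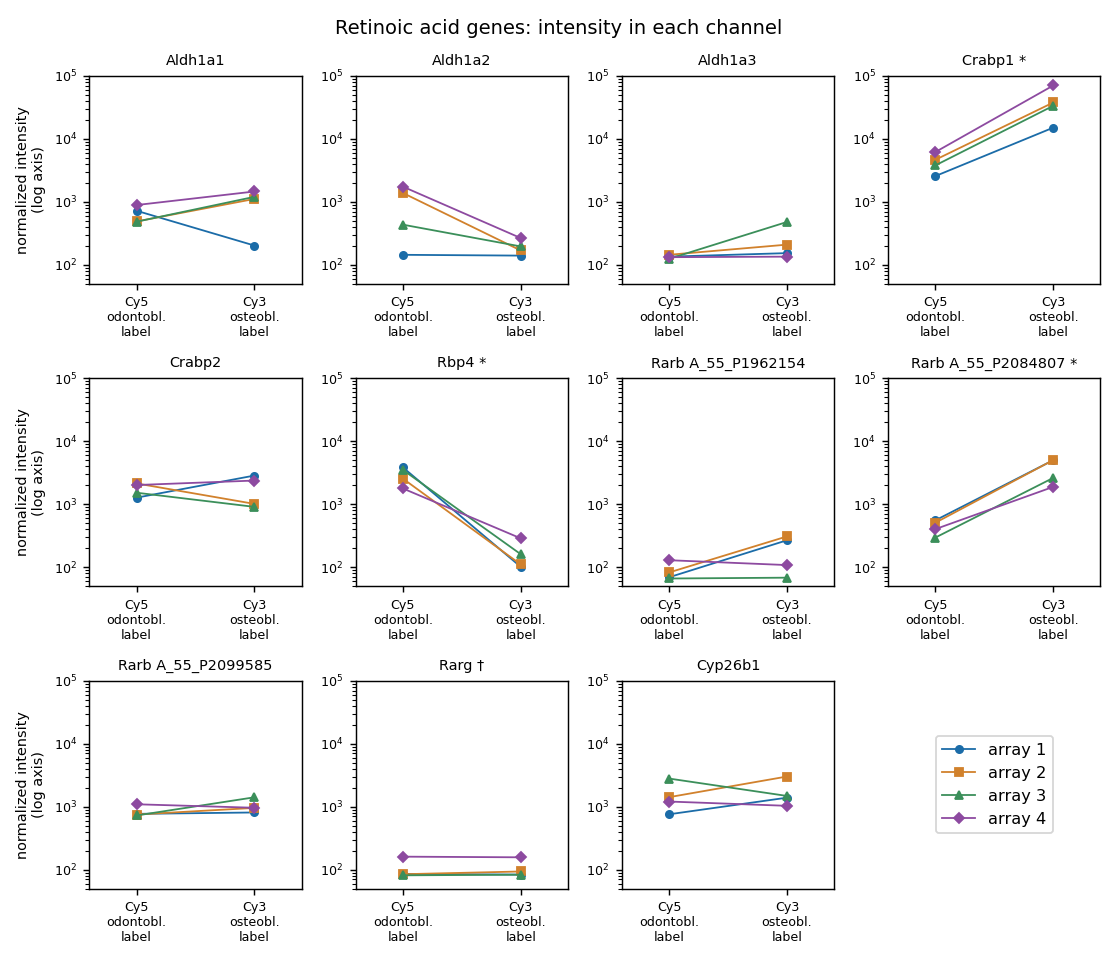
Normalized intensity (y axis, log scale) in the odontoblast-labelled (Cy5, left) and osteoblast-labelled (Cy3, right) channel is drawn for each probe, with a line joining the 2 channels of an array. Asterisk and dagger are as in the plot of ratios by array. Lines fall steeply to the right for Rbp4, rise for Crabp1 and the Rarb probe A_55_P2084807 on all 4 arrays, and cross for Aldh1a1, Crabp2 and Cyp26b1.

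Among the receptors, Rarb was called and Rarg did not pass the filter on dim probes. The brightest Rarb probe, A_55_P2084807, stands for the gene. It lies on chromosome 14, 17264648 to 17264707 (mm9, minus strand). Its intensities were 556.6, 510.0, 296 and 403 in the odontoblast-labelled channel, against 5018, 5037, 2626 and 1890.2 in the osteoblast-labelled channel. Every Cy3 value was above every Cy5 value. Ratios were -3.17, -3.30, -3.15 and -2.23, with a mean of -2.96 ± 0.24 (SE, n = 4), 7.80-fold higher in Cy3 (limma adjusted p = 0.0141), rank 68 among all genes toward that channel. The call was lost without array 1 (adjusted p = 0.0799), without array 2 (0.0725) and without array 4 (0.0541), and held without array 3 (0.0463). As for Crabp1, no gene on the array was called without array 1 or array 2, and 29 were called without array 4.

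The other 2 Rarb probes gave smaller ratios. Probe A_55_P2099585 was designed, per the file's annotation, on the messenger RNA of the beta 1 isoform and lies 387 kb upstream (17651424 to 17651483). It had intensities of 769.9, 751, 726 and 1094 in the odontoblast-labelled channel, against 810.3, 958, 1412 and 962 in the osteoblast-labelled channel. The channels overlapped, and the mean ratio was -0.30 ± 0.24 (SE, n = 4, adjusted p = 0.543 with each probe fitted on its own in limma). Both channels cleared background on each array. The ratio of A_55_P2084807 was lower than that of the beta 1 probe on each of the 4 arrays, by -2.66 on average (SD 0.43). The exact sign permutation test gave p = 0.125, the smallest possible, and 0.219 after adjustment.

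Probe A_55_P1962154 lies 1281 bases downstream of A_55_P2084807 (17263367 to 17263426) and was dim. Its intensities were 69.4, 82.7, 66.2 and 129 in the odontoblast-labelled channel, against 268, 309, 68.2 and 108 in the osteoblast-labelled channel. It was well above background in Cy5 on 1 array and in Cy3 on 3. Arrays 1 and 2 had ratios of -1.95 and -1.90 and arrays 3 and 4 of -0.04 and 0.26, for a mean of -0.91 ± 0.47 (SE, n = 4, adjusted p = 0.355 with each probe fitted on its own in limma). With the mean of the 3 probes in place of the brightest, Rarb had a ratio of -1.39 and was not called (adjusted p = 0.0771), so the result for the gene rests on 1 of its 3 probes.

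The probes behind the 2 calls toward Cy3 are shown, since each of these results comes from a single probe. Both are 60 bases long and in the files' orientation.
Crabp1 probe A_52_P185907: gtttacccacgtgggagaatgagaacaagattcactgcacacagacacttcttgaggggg
Rarb probe A_55_P2084807: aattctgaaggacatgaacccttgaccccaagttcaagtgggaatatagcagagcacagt

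Rarg, a receptor of skin and skeletal tissue (chromosome 15, 102065371 to 102065430, mm9), had 1 probe, and it was well above background on array 4 only, in both channels. Its intensities were 85.7, 84.7, 81.4 and 161 in the odontoblast-labelled channel, against 83.6, 93.7, 83.3 and 157 in the osteoblast-labelled channel. Values this close to the offset of 50 used in background correction carry little information on a difference. Without the filter on dim probes its mean ratio was -0.03 (limma adjusted p = 0.931).

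Cyp26b1, which oxidises retinoic acid and limits its range in the embryonic skeleton and limb (chromosome 6, 84521952 to 84522011, mm9), went both ways. Intensities were 758.5, 1419, 2798 and 1208 in the odontoblast-labelled channel, against 1392, 3018, 1483 and 1034 in the osteoblast-labelled channel. Arrays 1 and 2 were higher in Cy3, at ratios of -0.88 and -1.09, and arrays 3 and 4 were higher in Cy5, at 0.92 and 0.22. The mean was -0.21 ± 0.38 (SE, n = 4, limma adjusted p = 0.803), and it was 0.0078 with median centring in place of loess.

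Genes whose 4 array ratios lay nearest to those of a called member were found by the root mean square difference over the 4 arrays among 18731 genes. For Rarb they were Bmp2 (0.26), Lhx8 (0.28) and Adgrf4 (0.34). For Crabp1 they were Slc26a7 (0.46), Wif1 (0.46) and S1pr3 (0.51), and for Rbp4 Col13a1 (0.47), Nr2f1 (0.50) and Rapgef4 (0.54). The likeness covers 4 arrays of 1 comparison and no other condition.

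The rest of the retinoid pathway was examined in a list of 59 further genes, of which 51 were tested. Of these, 3 were called toward Cy5 and 0 toward Cy3, so 3 of 51 were called against 2.20% of all genes. At an unadjusted p under 0.05 in limma there were 15 of the 51, against 4014 of 18736 genes across the array. Mean ratios of the 51 genes were positive for 29 and negative for 22. Their median ratio was 0.03, against 0.01 over all genes. Of 17 tested genes of retinoid synthesis and storage, Adh1, an alcohol dehydrogenase that can oxidise retinol, was called. Its ratios were 3.32, 4.44, 2.99 and 2.19, with a mean of 3.24 ± 0.38 (SE, n = 4, limma adjusted p = 0.0298), but it passed the filter through Cy5 alone. Its Cy3 signal cleared background on 1 array, so the size of its ratio is uncertain. Rdh10, the main retinol dehydrogenase of the embryo, had a mean ratio of -0.75 (adjusted p = 0.464) and Dhrs3, which turns retinaldehyde back into retinol, one of -0.43 (adjusted p = 0.454). Adh7, another alcohol dehydrogenase, was positive on 4 of 4 arrays at 1.16 (adjusted p = 0.163). Dhrs9 had no Cy3 spot flagged as well above background and was not called (limma adjusted p = 0.182). Its array ratios ran from 0.39 to 1.27. The bound on its mean was 1.56-fold toward Cy5, which is not a minimum for each array, leaves out the spread between arrays and is open to dye bias.

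Of 10 tested uptake and carrier genes, 0 were called. Stra6, the membrane receptor for RBP4, lay opposite to Rbp4, with ratios of -2.16, -0.72, -2.45 and -1.04. All 4 were higher in Cy3, at a mean of -1.59 ± 0.35 (SE, n = 4), but the limma adjusted p of 0.111 missed the threshold. Rbp3 (0.58) and Stra6l (-0.10) had 1 sign on all 4 arrays without a call. Of the 2 tested breakdown genes, Cyp26c1 was negative on 4 of 4 arrays (-0.74, adjusted p = 0.291), and Cyp26a1 did not pass the filter on dim probes.

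Of 11 tested receptors and co-regulators, 0 were called. Rara had a mean ratio of -0.09 (adjusted p = 0.921), Rxra of 0.71 (adjusted p = 0.528) and Rxrb of -0.41 (adjusted p = 0.690), each with arrays on both sides of 0. Nrip1, a co-regulator of nuclear receptors, was negative on 4 of 4 arrays at -0.72 (limma adjusted p = 0.154). Of 14 tested genes known to respond to retinoic acid in other tissues, 2 were called toward Cy5 and 0 toward Cy3, with a list median of 0.65. Over all genes 1.31% were called toward Cy5 and 0.886% toward Cy3, with a median of 0.01. Meis2, a homeobox factor of limb and face mesenchyme, had ratios of 4.87, 4.39, 4.28 and 3.86 and a mean of 4.35 ± 0.22 (SE, n = 4, limma adjusted p = 0.00580). It too passed the filter through Cy5 alone, with Cy3 signal above background on 2 arrays, so the size of its ratio is uncertain. Its relative Meis1 had ratios of 2.31, 1.25, 2.10 and 1.92 and a mean of 1.90 ± 0.23 (SE, n = 4, limma adjusted p = 0.0321). Tgm2, a transglutaminase, was positive on 4 of 4 arrays at 1.87 (adjusted p = 0.0687), with a second probe at 3.65. Mean ratios were positive for 9 of the 14 response genes and negative for 5, Stra6 among the negative ones. Hoxb4, a positive one, also passed the filter through Cy5 alone, and Stra8, a negative one, through Cy3 alone. The list's counts and median are therefore descriptions.

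**Figure D3:**
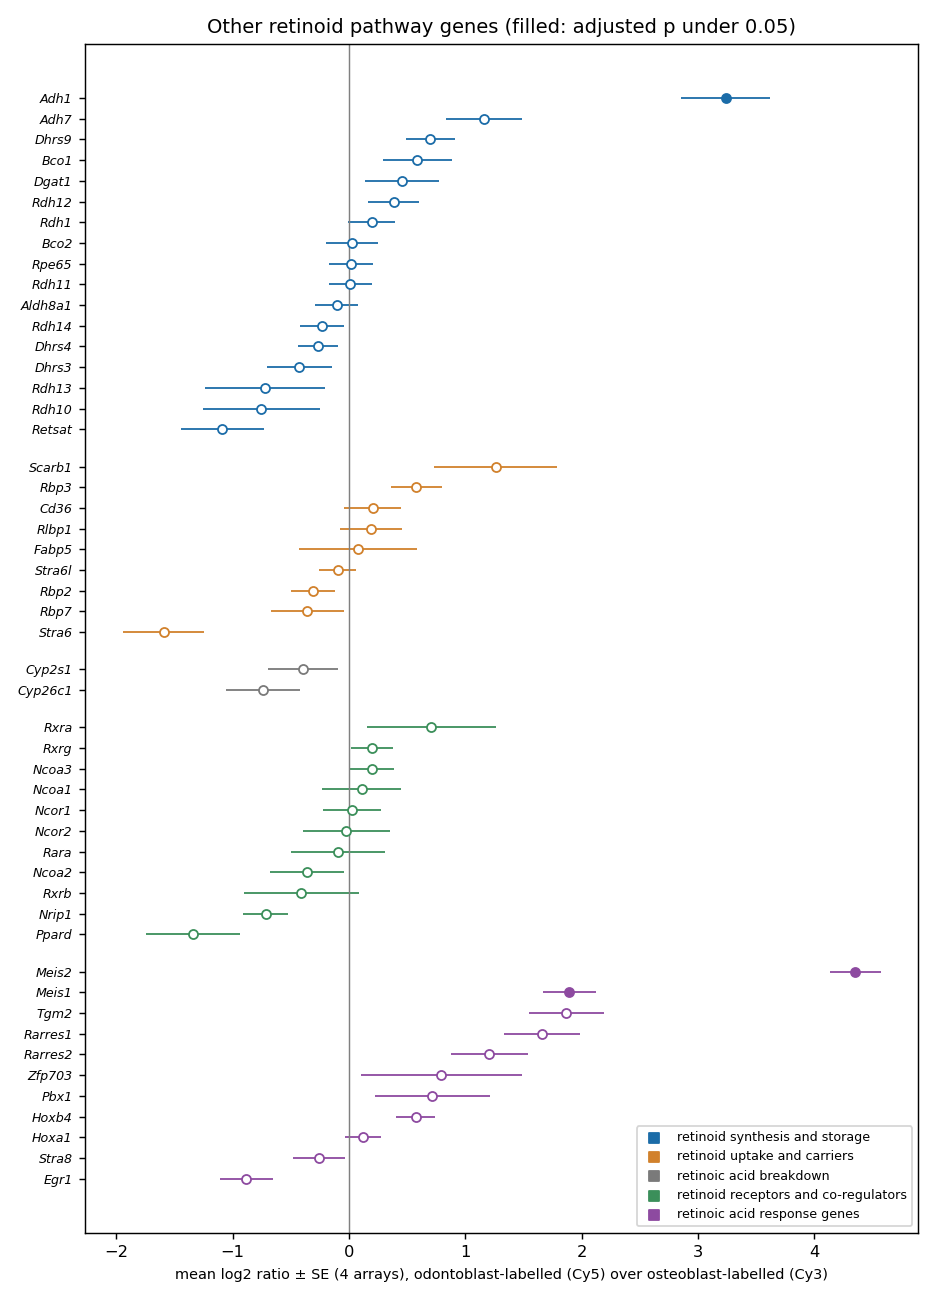
The mean log2 ratio of the odontoblast-labelled (Cy5) over the osteoblast-labelled (Cy3) channel (x axis) with its SE over 4 arrays is shown for further retinoid pathway genes, grouped by list (colour). Filled circles are called by limma. The 3 filled genes are Meis2 at 4.35, Adh1 at 3.24 and Meis1 at 1.90, and receptors and co-regulators lie between -1.34 and 0.71.

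Marker genes of other cell types moved between the same channels. Called toward Cy5, as was Rbp4, were 5 of 11 fibroblast and periosteum markers, 3 of 8 cartilage markers and 2 of 9 macrophage and leukocyte markers. Over all genes 1.31% were called toward Cy5. Means of fibroblast markers were positive for 9 and negative for 2, Postn (-1.62) and Pdgfra (-1.05). Those of leukocyte markers were positive for 7 and negative for 2, Csf1r (-0.39) and Cd68 (-0.10). All 8 cartilage markers had positive means. The summed intensity of the cartilage markers was 45266 to 204718 in Cy5, against 3990.3 to 5664 in Cy3. For fibroblast markers the sums were 185312 to 276865 in Cy5 and 63246 to 218611 in Cy3, and for leukocyte markers 112289 to 193906 in Cy5 and 77412 to 106531 in Cy3. The brightest probes dominate such sums: the median ratio was 1.58 for cartilage, 2.38 for fibroblast and 1.76 for leukocyte markers. Called toward Cy3, as were Crabp1 and Rarb, were 2 of 8 dental epithelium markers, with sums of 2105 to 2962 in Cy5 and 6396 to 12489 in Cy3 and a median ratio of -0.86. Over all genes 0.886% were called toward Cy3. Dental epithelium means were negative for 7 markers and positive for 1, Amelx (0.26). Endothelial, neural and pericyte lists had 0 called of 5, 6 and 5 tested, with medians of 0.13, 0.31 and 0.24. Of the tested markers in these lists, 0 were below the well-above-background flag on all 4 arrays of a channel. Their part in the ratios of the retinoic acid genes was not tested.

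**Figure D4:**
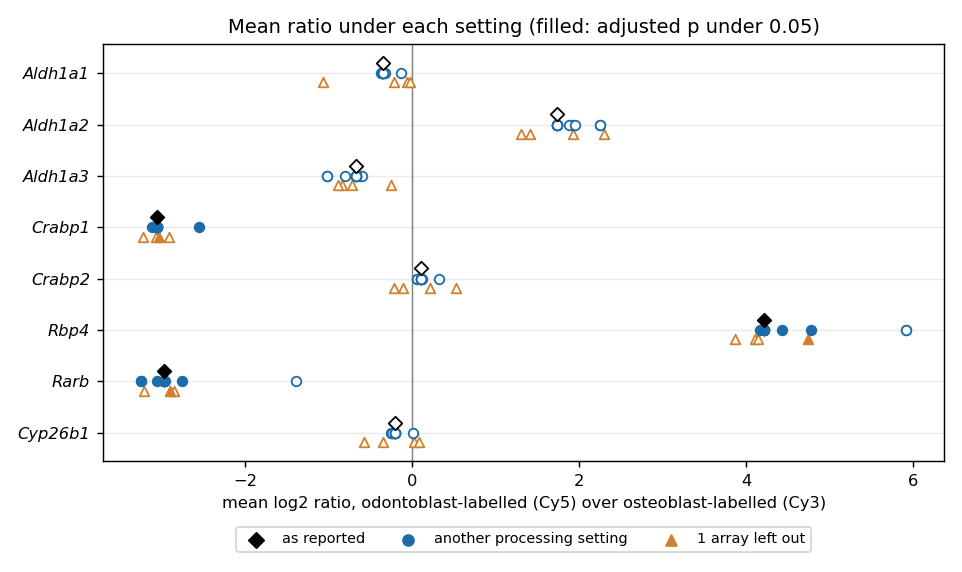
The mean log2 ratio of each tested gene (x axis) is shown as reported (black diamond), under other processing settings (blue circles) and with 1 array left out (orange triangles). Filled symbols have an adjusted p under 0.05. Crabp1 stays between -3.22 and -2.55 and Rbp4 between 3.87 and 5.91, while the Rarb circle at -1.39 is the mean of its 3 probes.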

How the data were processed

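Agilent Feature Extraction 10.7.3.1 wrote the authors' files, per the file headers, with mean spot and median background intensity values for 62976 spots, without normalization. The deposited log10 ratio of Cy5 over Cy3 is the software's own, after background subtraction and dye normalization. A deposited value table held log10 ratios within 0.01 (log2) of these for 99.72% to 99.78% of probes (r = 1.00 on each array, column medians of 0). Any later step of the authors is not stated here.

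Background was corrected with normexp (offset 50), and arrays were loess-normalized in limma 3.58.1 (R 4.3.3), with 3671 control spots at weight 0 and then removed. The 949 outlier-flagged spot values were set to missing, and 0 spots were saturated. A probe was kept if 1 channel was flagged well above background on 3 or more of the 4 arrays (44239 probes). Symbols came from a RefSeq table of another assembly (GRCm38.p6), used for names, through which 27235 probes matched by accession. The brightest probe stands for a gene, and unnamed probes stayed in the fit (37409 features). A mean ratio was tested against 0 (lmFit, eBayes, two-sided), and p-values were Benjamini-Hochberg adjusted over all features. SE is eBayes' moderated standard error. Intensities are printed per channel after loess and Aquantile normalization, and their levels are not compared between probes. For a fold bound, each array's dim value was raised to at least the lowest value well above background before averaging. Probe coordinates are mm9. With 1 slide and 1 scan, batches were not testable. The fit was tested on simulated data.

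The members and lists were chosen with earlier results of these data known. A result for 1 listed gene is not reported here, though counts include it. Named besides the members are called genes of the retinoid lists, up to 3 per list with the largest ratio of 1 sign, a few key genes in any case, and the 3 nearest genes per called member. Genes with only a clone name were passed over.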

Additional observations from a re-analysis of the deposited data

Results flagged for a closer look

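On array 4, the Rarb probe A_55_P2084807 had a log2 ratio of -2.23, apart from -3.30 to -3.15 on the other arrays. The gap was 0.855 of the whole range, above Dixon's critical value for 4 values. Of 11 member probes examined, this was the 1 that stood out, and chance alone marks about 1 in 20. Without array 4 the mean ratio of Rarb was -3.21 (limma adjusted p = 0.0541).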

How the results depend on the processing

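Under 11 other processing settings, Crabp1 kept its direction and its call. Rarb did so except with the mean of its probes (-1.39), and Rbp4 except with the software's ratios and the value table (5.91 in both, adjusted p = 0.0532 and 0.0531), and it failed the filter that asks for both channels above background on each array. Calls among the 9 genes numbered 2 or 3 in those settings, against 3, and 0 to 2 with 1 array left out. Calls among the other retinoid genes, 3 as reported, numbered 5 with median centring, 1 with both channels well above background and 0 to 1 with 1 array left out. Across the array, 412 genes were called as reported, 1359 with median centring, 267 with the software's ratios and 267 with the value table, and 0 to 173 with 1 array left out. Without array 1 or array 2 limma called 0 genes, with 3062 and 3285 at an unadjusted p under 0.05. Median centring moved the median gene to 0.21 and the share of calls toward Cy5 to 82.9%, against 59.7%. Means near 0 changed sign: Cyp26b1 to 0.0078 with median centring, and with 1 array left out Cyp26b1 ranged from -0.58 to 0.088 and Crabp2 from -0.22 to 0.53. The cause of these changes was not tested. Every test of a ratio is already paired, since an array sets 2 donor-matched RNAs against each other. No further paired analysis was possible because there is 1 group of arrays and none to block. Rarg and the dimmest Rarb probe lay close to background, which limits what their ratios can show.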
